A study of Homo sapiens with 12 samples.

Results

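The replication-dependent histone genes were examined as a group in DOHH2 and TMD8, a pair of human B-cell lymphoma lines exposed to the compound ST5589 or to its vehicle DMSO. Members were all array probes whose gene symbol begins HIST1, HIST2, HIST3 or HIST4, or whose current symbol is H1-1 to H1-6 or begins H2AC, H2BC, H3C or H4C. This gave 69 of the 20046 genes named on the array, by 79 of its 47231 probes, 1 of them annotated jointly to H3C11 and H3C6. Of these, 53 probes for 47 symbols were bright enough to test, among 20546 tested probes in all.

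The 12 single-colour beadchip arrays formed 4 groups of 3: DOHH2 with ST5589 at 300 nM, DOHH2 with DMSO, TMD8 with ST5589 at 300 nM and TMD8 with DMSO. DOHH2 is a germinal-centre-type B-cell lymphoma line, and TMD8 is usually classed with the activated B-cell-like diffuse large B-cell lymphomas. The labels call ST5589 an ST1926 derivative; ST1926, or adarotene, belongs to the atypical retinoids. The labels state neither the exposure time nor whether replicates were separate cultures, and p-values here measure the spread among arrays, possibly only a technical one. The 2 lines were run on separate chips, so the line difference and any chip difference cannot be told apart. DMSO arrays held the first 3 places used on both chips, and treatment and place cannot be told apart either.

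Histones are the proteins around which DNA is wound: H2A, H2B, H3 and H4 form the nucleosome core, and linker H1 binds where the DNA enters and leaves it. Replication-dependent histone genes are transcribed mainly in S phase, under the coactivator NPAT and cyclin E with CDK2. Their mRNAs end in a stem-loop bound by SLBP in place of a poly(A) tail. Some members, H1-2, H2AC6, H2BC4, H2BC5, H2BC12 and H2BC21 among them, are also known to make polyadenylated mRNA. The amplification kit named in the labels starts from an oligo(dT) primer, so signals here lean towards polyadenylated forms. A member's signal is therefore not its total mRNA.

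The promoters of 64 of the 69 member genes were found among RefSeq sequences of GRCh38.p14, taken as the 250 bases before the gene start. 4 motifs were searched on both strands: the TATA box TATAAA, the CCAAT box, the octamer ATTTGCAT of H2B promoters, and the AAACACA box of H1 promoters. TATAAA stood in 65.6% of member promoters and 10.7% of all 35116 promoters, and CCAAT in 84.4% and 32% of them. ATTTGCAT stood in 40.6% of member promoters and 1.63% of all promoters. It was found in 14 of 18 H2B and 11 of 16 H2A promoters, in 1 of 11 H3 promoters, and in 0 of 6 H1 and 0 of 13 H4 promoters. The H2A and H2B counts are not independent. In 11 head-to-head pairs of H2A and H2B genes the starts lay 192 to 246 bases apart. Both promoters of such a pair hold the same bases between the starts, and 1 match there counts for both genes. AAACACA stood in 6 of 6 H1 promoters, in no promoter of the other member types, and in 4.82% of all promoters.

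5 promoters are shown because the results below turn on their genes: H1-2, H2BC12 and H2AC6 were among the members most strongly lower in DOHH2, H2BC9 was the member called higher there, and H4C2 was called higher with ST5589 in TMD8. Each reads 5′ to 3′ on the gene's strand, and capitals mark matches to the 4 motifs on either strand, with overlapping matches in 1 run.
H1-2 promoter, chr6:26056471-26056720, minus strand: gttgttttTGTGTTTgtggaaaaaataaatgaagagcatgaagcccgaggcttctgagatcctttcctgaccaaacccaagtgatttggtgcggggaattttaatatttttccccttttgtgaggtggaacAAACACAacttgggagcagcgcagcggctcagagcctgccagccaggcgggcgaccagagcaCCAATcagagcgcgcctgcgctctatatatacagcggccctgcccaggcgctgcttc
H2BC12 promoter, chr6:27146859-27147108, minus strand: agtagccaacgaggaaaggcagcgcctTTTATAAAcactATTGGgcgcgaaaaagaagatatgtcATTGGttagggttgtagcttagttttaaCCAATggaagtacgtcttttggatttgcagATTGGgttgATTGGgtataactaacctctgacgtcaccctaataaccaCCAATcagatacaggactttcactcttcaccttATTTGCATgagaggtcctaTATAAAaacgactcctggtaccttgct
H2AC6 promoter, chr6:26123922-26124171, plus strand: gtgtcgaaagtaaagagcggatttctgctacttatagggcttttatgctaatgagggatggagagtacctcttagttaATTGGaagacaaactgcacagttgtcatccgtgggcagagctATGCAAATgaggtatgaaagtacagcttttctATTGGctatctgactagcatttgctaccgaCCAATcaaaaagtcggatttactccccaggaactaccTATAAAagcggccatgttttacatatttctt
H2BC9 promoter, chr6:26251364-26251613, plus strand: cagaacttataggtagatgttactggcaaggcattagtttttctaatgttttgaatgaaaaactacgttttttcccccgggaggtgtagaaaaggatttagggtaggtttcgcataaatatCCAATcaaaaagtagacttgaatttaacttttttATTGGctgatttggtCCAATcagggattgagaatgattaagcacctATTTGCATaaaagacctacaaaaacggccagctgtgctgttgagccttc
H4C2 promoter, chr6:26027284-26027533, minus strand: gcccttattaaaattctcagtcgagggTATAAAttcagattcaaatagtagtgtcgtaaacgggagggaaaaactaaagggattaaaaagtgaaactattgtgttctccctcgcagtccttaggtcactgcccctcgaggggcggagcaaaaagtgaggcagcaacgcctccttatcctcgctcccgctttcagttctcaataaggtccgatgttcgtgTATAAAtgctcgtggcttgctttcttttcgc

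The H1-2 promoter held 2 matches to the H1 box and 1 CCAAT box, and no match to TATAAA in these bases. The H2BC12 promoter held 6 CCAAT boxes, 3 matches to TATAAA, and the octamer with its first base at -46 from the start. The H2AC6 promoter held the octamer as well, at -130 and on the opposite strand, and that of H2BC9 at -49. The H4C2 promoter held 2 matches to TATAAA and neither CCAAT nor the octamer. Among the 7 genes called and lower by over 2 log2 units in DOHH2, 3 had the octamer, 7 had CCAAT and 6 had TATAAA. A match is a description of the letters, not a site.

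Member genes are alike in sequence, and a probe may read more than the gene it is named for. Of the 15 H4 genes, 14 carry each other's symbols as RefSeq synonyms, 13 others apiece, with H4C7 the exception; H4 genes are known to encode the same protein almost throughout. The 10 H3 genes of HIST1 carry 9 others apiece. Among 421 pairs of same-type promoters, compared without gaps at shifts of up to 10 bases, the median identity was 32.9%, and 6 pairs reached 80%. H2AC18 and H2AC19, H3C14 and H3C15, and H4C14 and H4C15 were each 100% identical over the bases compared, and H4C11 and H4C12 were 98% identical. Probe and transcript sequences were not analysed here, so whether a probe reads both copies of such a pair was not determined.

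In RefSeq coordinates the members formed the HIST1 cluster on chromosome 6 in 3 blocks, HIST2 and HIST3 on chromosome 1, and HIST4 on chromosome 12. The tested members of HIST1 block 1 spanned chr6:26017032-26285534, those of block 2 chr6:27132316-27146858, those of block 3 chr6:27808173-27893185, and those of HIST2 chr1:149782689-149887965. By type, 3 of 6 H1, 13 of 19 H2A, 14 of 23 H2B, 13 of 16 H3 and 10 of 15 H4 probes were tested. The 26 probes not tested included those of H1-4, H1-5 and the testis-specific H1-6, and those of H3C1, H4C1, H4C4, H4C6, H4C7 and H4C13. The number of member probes above background lay between 29 and 44 in the DOHH2 arrays and between 53 and 62 in the TMD8 arrays.

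Median intensity lay between 90.0 and 113 across the 12 arrays, and 38.0% to 46.1% of all probes were above background. Of the 10 pan-B-cell markers, 7 were above background in all 3 DOHH2 DMSO arrays and 8 in all 3 TMD8 DMSO arrays, and of the lists for other cell types 4 of 8 myeloid, 3 of 9 stromal and 0 of 10 T and NK markers were tested. Of the 8 activated B-cell genes, 7 were called lower in DOHH2 than in TMD8 under DMSO, against 23.0% of all tested probes. Of the 8 tested pan-B-cell genes, 6 were called lower there too and 2 higher. Of 6 tested germinal centre genes, MME and STAP1 were higher in DOHH2, while 4, BCL6 and LMO2 among them, were lower there. ST5589 array 2 of DOHH2 stood apart: 23 probes bright in TMD8 were above background in it and in no other of the 6 DOHH2 arrays, at a median 4.26% of the TMD8 signal. The summary of the DOHH2 response, and the member values that this array moves most, are also given without it.

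The widest differences of the histone genes lay between the lines and not between treatments. Under DMSO, 31 of the 53 tested member probes were called lower in DOHH2 than in TMD8 (58.5%, against 23.0% of all tested probes) and 1 was called higher (24.9% of all tested probes). In either direction 32 were called (60.4%, against 47.9%), and 47 values were below 0 (88.7%, against 50.3%). A call is an adjusted p under 0.05 from limma with Benjamini-Hochberg adjustment over all 20546 tested probes. The member median was a log2 fold change of -0.40, with a range of -4.01 to 0.86, while the median of all tested probes was -0.00 and their 5th and 95th percentiles were -1.08 and 1.01. The 3 DOHH2 arrays all lay below the 3 TMD8 arrays for 36 members (67.9%, against 26.7% of all tested probes) and above them for 2, H2BC9 and H3C12 (3.77%, against 27.6%). For 10 member probes of 7 genes the call came with a difference of over 2 log2 units (18.9%, against 1.62%).

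**Figure D1:**
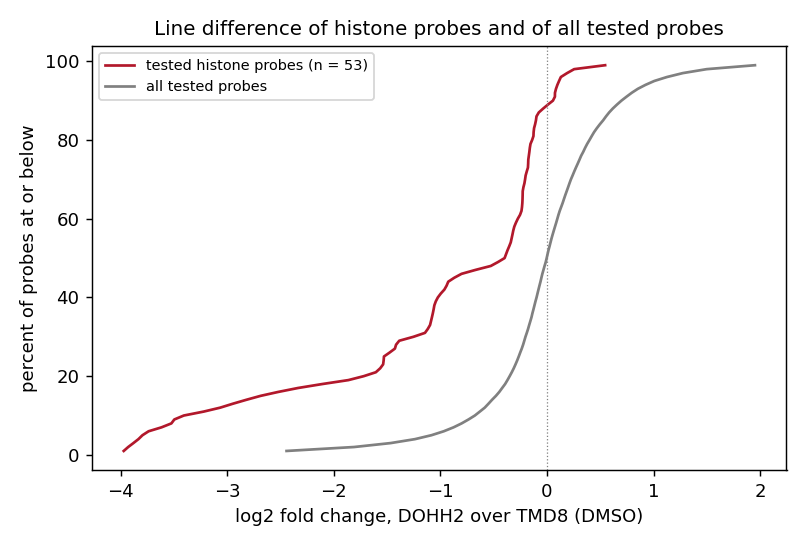
Cumulative share of probes (y axis, percent) at or below each log2 fold change of DOHH2 over TMD8 under DMSO (x axis), for the 53 tested histone probes and for all 20546 tested probes. The histone curve lies left of the other over its whole course, with a median of -0.40, and its lower tail reaches -4.01.

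The filter bears on these shares. Of the 53 tested members, 21 passed only because a TMD8 group was above background, and none passed through DOHH2 alone. Of the 25 members above background in all 12 arrays, 14 were called lower in DOHH2 (56.0%, against 22.4% of the 14449 such probes), 8 of them by over 2 log2 units.

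Linker histone H1-2, which compacts chromatin and is among the commonest H1 subtypes in somatic cells, had the widest difference. Its normalized log2 intensity was 8.36, 8.14 and 7.81 in the DOHH2 DMSO arrays, against 12.20, 12.06 and 12.09 in the TMD8 DMSO arrays. Every DOHH2 array lay far below every TMD8 array. The difference was -4.01 ± 0.19 (SE) on the log2 scale (limma adjusted p = 1.27e-09), 16.1-fold lower in DOHH2. H1-3, another somatic linker histone, was not above background in any DOHH2 DMSO array and was at least 1.07-fold lower there (limma adjusted p = 0.00510). H1-1, a linker histone of proliferating cells, differed by -0.18 ± 0.14 and was not called (limma adjusted p = 0.316).

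Among H2A genes, 10 of 13 tested probes were called lower in DOHH2, against 23.0% of all tested probes, and the median was -1.02. The H2AC18 gene of HIST2 read 7.54, 7.31 and 7.27 in DOHH2 under DMSO, against 10.86, 10.84 and 11.03 in TMD8. Its 2 probes differed by -3.53 ± 0.12 and -3.48 ± 0.12, 11.6-fold and 11.2-fold lower in DOHH2. The probe of its near copy H2AC19 read 8.19, 7.68 and 7.63 in DOHH2, against 10.33, 10.53 and 10.55 in TMD8, a difference of -2.64 ± 0.13 (limma adjusted p = 2.27e-09). H2AC6, an H2A gene of HIST1 also expressed outside S phase, read 6.68, 6.39 and 6.32 in DOHH2, against 9.42, 9.26 and 9.38 in TMD8. No array of either line came near the other line's range, and the difference was -2.89 ± 0.12, 7.43-fold lower in DOHH2. H2AC20, beside H2BC21 in HIST2, differed by -1.59 ± 0.16 (limma adjusted p = 2.47e-06). H2AC8 was not above background in any DOHH2 DMSO array and was at least 1.52-fold lower there. H2AC11 was called lower by 1 probe, at -1.43 ± 0.14. That probe was above background in 1 of 3 DOHH2 DMSO arrays, and its value lay between -2.13 and -1.09 in the alternatives. Its other probe was not above background in any DOHH2 DMSO array and was above it in 2 of 3 TMD8 DMSO arrays, so no fold is given for it.

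Among H2B genes, 10 of 14 tested probes were called lower in DOHH2, against 23.0% of all tested probes, and the median was -1.30. H2BC12 read 9.97, 9.65 and 9.51 in DOHH2 under DMSO, against 13.30, 13.59 and 13.53 in TMD8. The difference was -3.77 ± 0.19 by this probe and -3.93 ± 0.20 by the other, 13.6-fold and 15.3-fold lower in DOHH2. H2BC5 read 7.05, 6.68 and 6.71 in DOHH2, against 10.79, 10.56 and 10.60 in TMD8, a difference of -3.84 ± 0.16. Another probe gave -2.28 ± 0.13, and 1 of the 3 probes was not tested. H2BC21, an H2B gene of HIST2, was above background in 1 of 3 DOHH2 DMSO arrays and differed by -3.12 ± 0.13, 8.70-fold lower. H2BC4 differed by -1.05 ± 0.12, and H2BC11 by -1.81 ± 0.14.

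H2BC9 was the single member called in the other direction. It read 8.29, 7.68 and 7.53 in DOHH2 under DMSO, against 7.02, 7.01 and 6.91 in TMD8. The DOHH2 arrays all lay above those of TMD8, by 0.86 ± 0.17 (limma adjusted p = 9.53e-04). With ST5589 the probe again read higher in DOHH2, at 7.44 to 7.95, against 6.68 to 6.73 in TMD8.

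Of 13 tested H3 probes 6 were called lower in DOHH2, against 23.0% of all tested probes, with a median of -0.20 and none over 2 log2 units. H3C8 had the widest H3 difference, -1.41 ± 0.12, followed by H3C10 at -1.15 ± 0.13. H3C8 was above background in 1 of 3 DOHH2 DMSO arrays, and its value lay between -2.05 and -1.08 in the alternatives. None of the 4 H3 probes of HIST2 was called, and they lay between -0.20 and 0.13. Of 10 tested H4 probes 3 were called lower, H4C8 at -1.53 ± 0.15, H4C14 at -0.79 ± 0.16 and H4C16, and the median was -0.22. The H4 count is near the 23.0% of all tested probes called lower. H4C16 was not above background in any DOHH2 DMSO array and was at least 1.14-fold lower there (limma adjusted p = 0.0189), a call lost in 3 of 20 alternatives. H4C3, at -0.31 ± 0.16, missed the threshold (limma adjusted p = 0.127). The type medians depend on the filter: the H2A median was -0.34 with no filter and -2.64 among members above background in all 12 arrays, and the H2B median was -0.23 and -3.02 under the same settings. Whether histone types differed from each other was not tested.

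**Figure D2:**
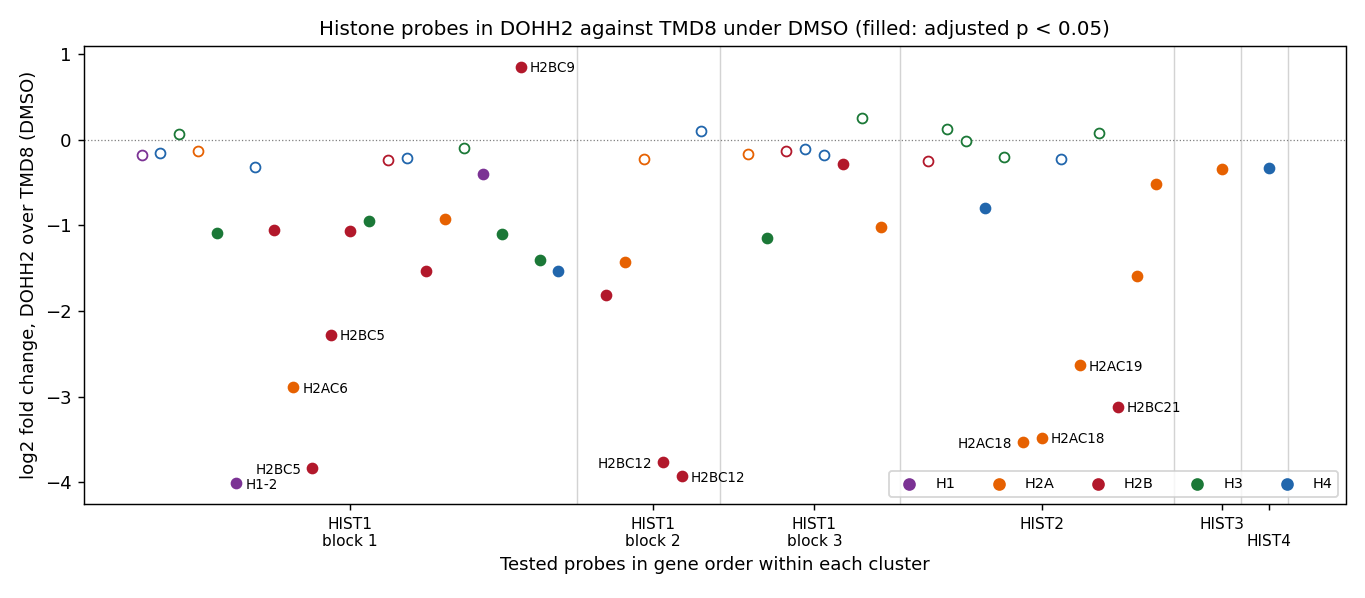
Log2 fold change of DOHH2 over TMD8 under DMSO (y axis) for the tested histone probes, in gene order within each cluster (x axis), coloured by histone type and filled where called. The probe annotated to both H3C11 and H3C6 is left out; probes below -2 are of H1, H2A and H2B types and lie in HIST1 blocks 1 and 2 and in HIST2.

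By cluster, the member median was -0.95 in HIST1 block 1, -1.62 in block 2, -0.17 in block 3 and -0.52 in HIST2. The 10 probes past 2 log2 units were split into 4 in block 1, 2 in block 2, 0 in block 3 and 4 in HIST2. With no filter the median was -0.19 in block 1 and -0.23 in HIST2. Some neighbours differed in direction or call: H4C9, which overlaps H2BC12 on the map, was at 0.10 ± 0.10, and H2BC9 is the next tested gene after H3C7, which was at -1.10 ± 0.15.

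H2A and H2B genes often lie head to head and share the bases between their starts. Of 11 such pairs with starts within 1000 bases, 4 had both genes tested. H2AC6 and H2BC4, with 244 bases between starts, differed by -2.89 and -1.05 between the lines. H2AC20 and H2BC21, 234 bases apart, differed by -1.59 and -3.12. H2BC8 differed by -1.54, and H2AC8, 231 bases away, was at least 1.52-fold lower in DOHH2. H2BC8 was above background in 1 of 3 DOHH2 DMSO arrays, and its value lay between -2.20 and -1.18 in the alternatives. H2AC11, by its called probe, and H2BC11, 246 bases apart, differed by -1.43 and -1.81. In each of the 4 pairs both genes were called lower in DOHH2, H2AC11 by 1 of its 2 probes. Among all tested members 58.5% were called lower. H2AC8, H2BC8, H2AC11, H2BC11 and H2BC21 passed the filter only through TMD8 groups, and 37.8% of all probes that did so were called lower. Whether the genes of a pair go together was not tested.

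The 8 tested probes of the 6 genes known for polyadenylated mRNA had a median of -3.44, and 8 of 8 were called lower, 7 by over 2 log2 units. The other 45 tested members had a median of -0.31, and 23 were called lower, 3 by over 2 log2 units. Those 3 were the probes of H2AC18 and H2AC19. Of all tested probes 23.0% were called lower, and 1.62% were called and lower by over 2 log2 units. H2BC5 and H2BC12 each count with 2 probes among the 8, and H2BC21 passed the filter only through TMD8 groups. The 10 tested probes of genes whose RefSeq span exceeds 1000 bases had a median of -1.67, against -0.33 for the 42 of shorter span. The genes of the list were named with these results known, so its median is a description.

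**Figure D3:**
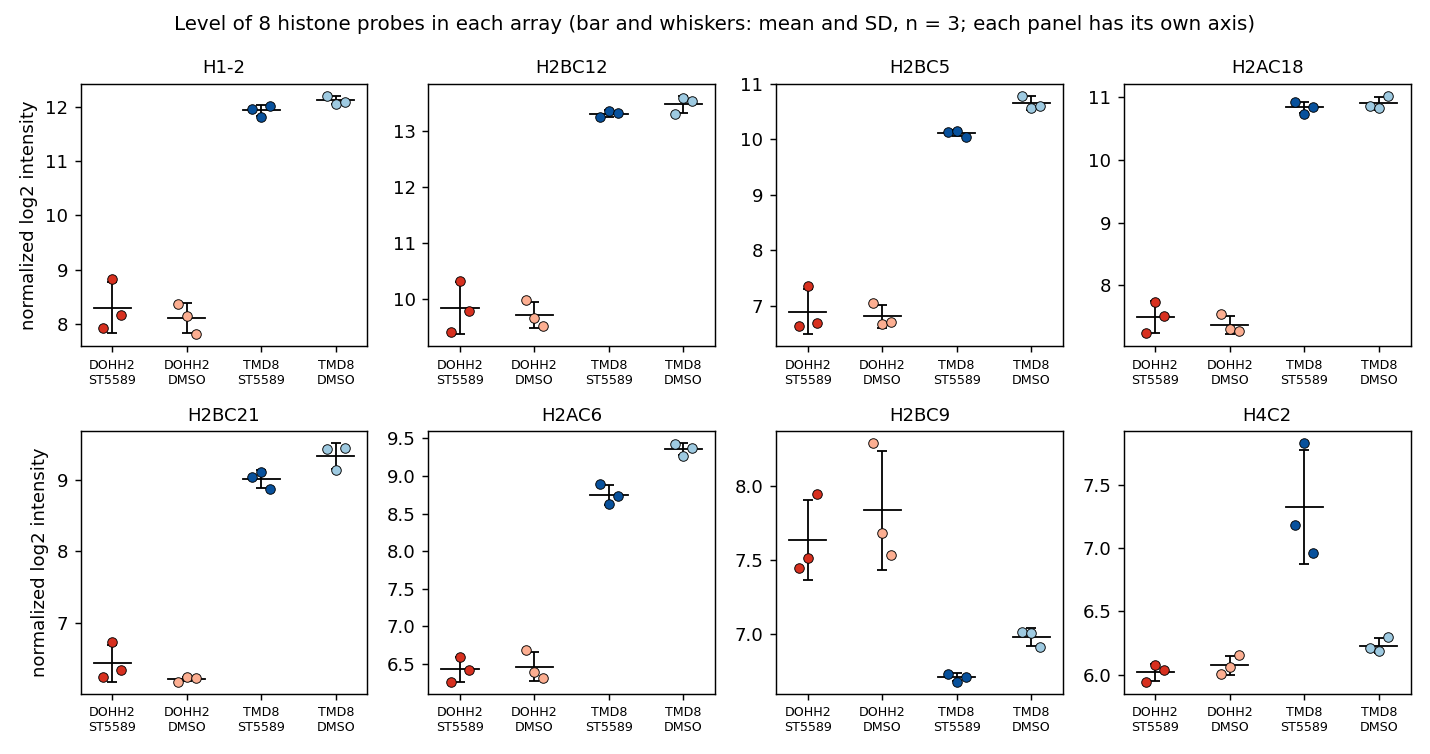
Normalized log2 intensity (y axis, own range in each panel) of 8 histone probes in every array, by group (x axis), with mean and SD of 3 arrays. 6 probes are lower in both DOHH2 groups than in both TMD8 groups, H2BC9 is higher in DOHH2, and the 3 highest H4C2 values are those of TMD8 with ST5589.

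With ST5589 in TMD8, histone members were more often lower than higher, by small amounts. Of 53 tested member probes, 2 were called (3.77%, against 0.565% of all tested probes): H2AC6 fell (0.277% of all tested probes were called lower) and H4C2 rose (0.287% were called higher). The median log2 fold change was -0.10 against 0.00 for all tested probes, with a median SE of 0.12, so most single members moved by less than 2 SE. 35 of 53 values were below 0 (66.0%, against 49.4% of all tested probes). The ST5589 arrays all lay below the DMSO arrays for 19 members (35.8%, against 7.98%) and all above them for 3 (5.66%, against 8.08%). Before adjustment 13 members had p under 0.05 (24.5%, against 6.22%).

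H2AC6 read 8.89, 8.63 and 8.73 in TMD8 with ST5589, against 9.42, 9.26 and 9.38 with DMSO. All 3 treated arrays were lower; the change was -0.60 ± 0.12 (limma adjusted p = 0.0378), a level 0.658 times that of DMSO. The call was lost in 10 of 22 alternatives, each that left out a TMD8 array among them, with adjusted p between 9.86e-04 and 0.400 and the fold change always between -0.77 and -0.54.

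The members next lowest did not pass. H2BC5 read 10.13, 10.14 and 10.04 with ST5589, against 10.79, 10.56 and 10.60 with DMSO, and its 2 tested probes gave -0.55 ± 0.16 (limma adjusted p = 0.336) and -0.50 ± 0.13 (limma adjusted p = 0.198). H3C8 read 7.17, 7.11 and 6.97 with ST5589, against 7.40, 7.66 and 7.71 with DMSO, a fold change of -0.51 ± 0.12 (limma adjusted p = 0.119). H3C3 was at -0.37 ± 0.09 (limma adjusted p = 0.162). In each case the treated arrays lay below the DMSO arrays. H1-2, whose arrays read 11.96, 11.81 and 12.02 with ST5589, against 12.20, 12.06 and 12.09 with DMSO, was at -0.18 ± 0.19.

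H4C2, one of the many genes for histone H4, went the other way. It read 7.18, 7.83 and 6.96 in TMD8 with ST5589, against 6.21, 6.18 and 6.30 with DMSO. The groups did not overlap, 2 of the 3 DMSO arrays were above background, and the difference was 1.09 ± 0.16 (limma adjusted p = 0.00731), a level 2.14 times that of DMSO. In DOHH2 the probe was above background in no array. The call held in 20 of 22 alternatives, with adjusted p between 4.10e-04 and 0.0652, and without the highest array, ST5589 array 2, the value was 0.85.

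3 small nuclear RNAs, chosen after their values were known, moved with H4C2 in the same arrays. RN7SK, the RNA that restrains the elongation factor P-TEFb, read 11.16, 12.51 and 11.28 with ST5589, against 9.34, 9.51 and 9.60 with DMSO, a fold change of 2.17 ± 0.28 (limma adjusted p = 0.00299). RNU4-2, a spliceosomal RNA, and RNU6ATAC, of the minor spliceosome, were higher by 2.46 ± 0.26 and 2.54 ± 0.25. ST5589 array 2 was the highest TMD8 array for each of the 3 and for H4C2. Their part in the H4C2 value was not tested. The other 9 tested H4 probes lay between -0.33 and 0.21 in TMD8, and none was called.

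**Figure D4:**
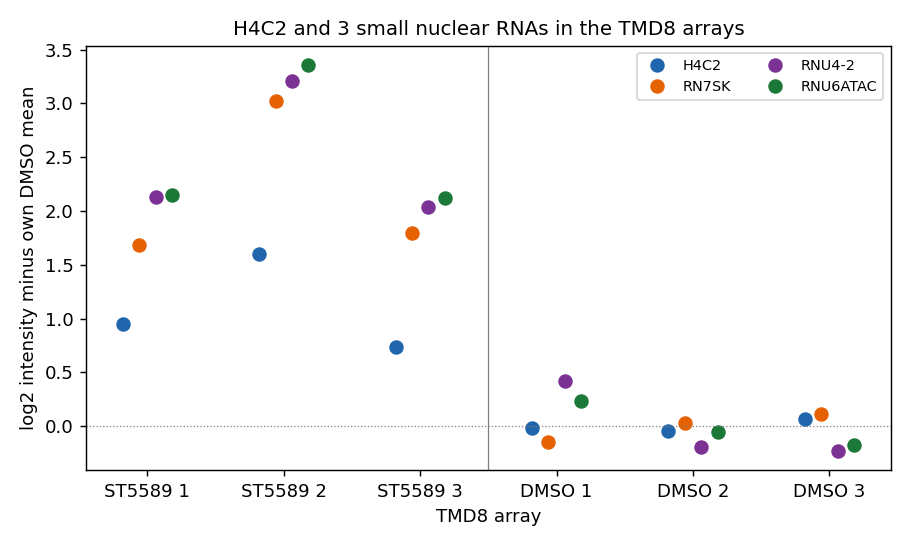
Log2 intensity of H4C2 and of 3 small nuclear RNAs in the 6 TMD8 arrays (x axis), each minus its own mean over the DMSO arrays (y axis). All 4 are higher in every ST5589 array than in every DMSO array, and ST5589 array 2 is the highest for each.

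By type, the TMD8 medians with ST5589 were -0.00 for H1, -0.08 for H2A, -0.22 for H2B, -0.14 for H3 and -0.02 for H4. The treated arrays lay wholly below the DMSO arrays for 7 of 14 H2B, 6 of 13 H3, 4 of 13 H2A, 1 of 3 H1 and 1 of 10 H4 probes. The share of all tested probes was 7.98%, so the H4 count is near that share, and the H1 count is a single probe. The medians of H2A, H2B and H3 were below 0 in all 23 alternatives, while those of H1 and H4 were below 0 in 20 of 23 each. Without ST5589 array 3 of TMD8 the H3 median was -0.05 and the H4 median was 0.01.

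Cluster medians differed in sign. The TMD8 medians were -0.18 in HIST1 blocks 1 and 2 and -0.16 in block 3, and 30 of the 37 tested HIST1 probes were below 0. In HIST2 the median was 0.13, and 3 of 13 probes were below 0. Those 3 were an H2AC18 probe at -0.27 ± 0.12, the other H2AC18 probe at -0.07 ± 0.12 and H2BC21 at -0.32 ± 0.13. The highest HIST2 values were those of H3C13, at 0.24 ± 0.12 (limma adjusted p = 0.820), and H4C14, at 0.21 ± 0.16, and neither was called. Within HIST2 the median was 0.18 for 4 H3 probes, 0.17 for 2 H4 probes, 0.01 for 5 H2A probes and -0.10 for 2 H2B probes. Some of these probes are of near copies, such as H3C14 and H3C15, so 1 signal may be counted more than once. Without ST5589 array 2, the highest TMD8 array for H4C2, the HIST2 median was 0.06. The signs of the block and HIST2 medians held in all 23 alternatives, and the difference between clusters was not tested.

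**Figure D5:**
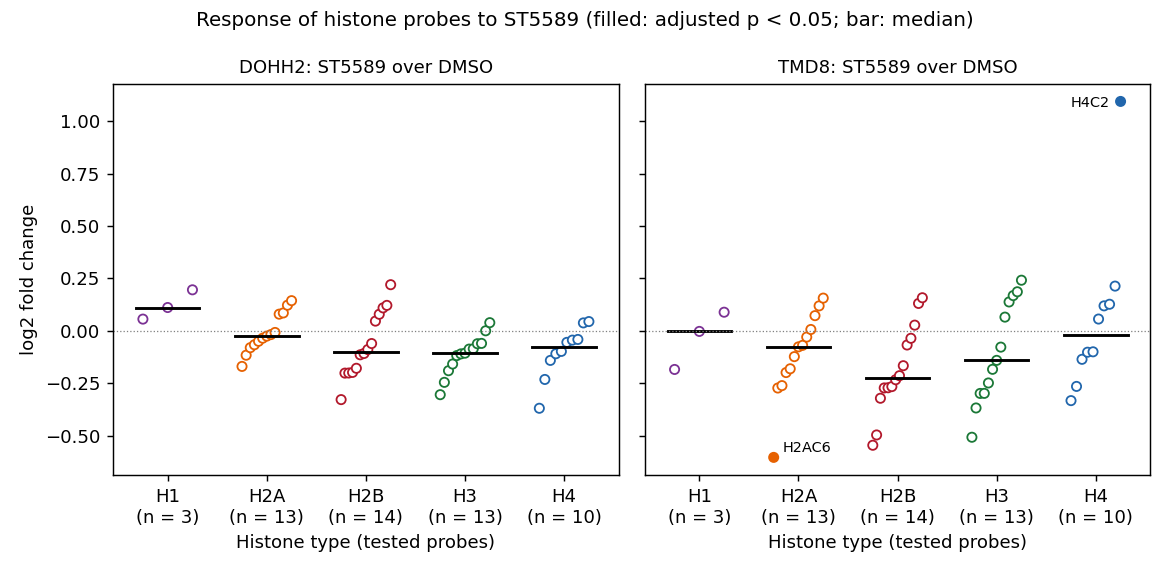
Log2 fold change of ST5589 over DMSO (y axis) for each tested histone probe, by histone type (x axis), in DOHH2 (left) and TMD8 (right), with bars at the median and filled points for calls. In TMD8 the H2B median is lowest at -0.22, and H2AC6 and H4C2 are the filled points; in DOHH2 no point is filled.

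The genes of the polyadenylated list were all at or below -0.17 in TMD8 with ST5589: 8 of 8 tested probes were below 0, with a median of -0.30, and for 6 the treated arrays lay wholly below the DMSO arrays. Of all tested probes 49.4% were below 0, and for 7.98% the treated arrays lay wholly below. The other 45 members had a median of -0.07, with 27 below 0. H2BC12 was at -0.17 ± 0.19 and -0.27 ± 0.20 by its 2 probes, H2BC21 at -0.32 ± 0.13 and H2BC4 at -0.27 ± 0.12.

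In DOHH2 no member was called with ST5589, and 3 of all 20546 tested probes were (0.0146%). Before adjustment 4 members had p under 0.05 (7.55%, against 4.23% of all tested probes). The median was -0.06 against 0.00 for all tested probes, and 38 of 53 values were below 0 (71.7%, against 49.9%). The ST5589 arrays lay wholly below the DMSO arrays for 5 members (9.43%, against 4.15%) and above them for 2 (3.77%, against 3.83%). Of the 53 tested members, 21 passed the filter only through TMD8 groups, as did 3426 of the 20546 tested probes. Their DOHH2 values may lie near background and say little of a response there. Of the separated members, H2BC15 (below) and H2AC8 (above) were above background in no DOHH2 array. Without ST5589 array 2 no member and 4 probes were called, the member median was -0.09, and 7 members lay wholly below DMSO. That last count is not comparable with 5, because a smaller group separates more easily. The lowest values were those of H4C12, at -0.37 ± 0.15, and H2BC5, at -0.33 ± 0.13 by one probe and 0.08 ± 0.16 by the other, each with a limma adjusted p of 0.969 or more. Without ST5589 array 2 H4C12 was at -0.37, and the H2BC5 probes were at -0.40 and -0.15, so the second turned its direction.

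DMSO array 1 of DOHH2 had the highest member median of the 6 DOHH2 arrays, 6.57, against 6.39 and 6.33 in the other DMSO arrays and 6.30, 6.37 and 6.41 with ST5589. Without it the median log2 fold change of the members was 0.03. The number wholly below DMSO was 5 without it, and 14 without DMSO array 3 and 12 without ST5589 array 3. Groups that lost an array separate more easily, so these counts cannot be set against that with all arrays.

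A few members bright in TMD8 read highest in ST5589 array 2 of DOHH2, while others, such as H2AC19, did not. H1-2 read 7.92, 8.82 and 8.16 in DOHH2 with ST5589, against 8.36, 8.14 and 7.81 with DMSO, and ST5589 array 2 was the highest of the 6. H2BC21 read 6.24, 6.72 and 6.33 with ST5589, against 6.17, 6.23 and 6.23 with DMSO. Its fold change was 0.22 ± 0.13, and 0.07 without that array. H1-2 was at 0.20 ± 0.19, and -0.06 without it. The median of the polyadenylated list was 0.02, and -0.14 without it.

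The response was compared between the lines as DOHH2 minus TMD8. No member was called, against 0.0146% of all tested probes, and 7 had p under 0.05 before adjustment (13.2%, against 2.37%). Among them were 1 probe of H2BC5, at 0.63 ± 0.23, and H2AC6, at 0.57 ± 0.17 (limma adjusted p of 1 for both). The other tested H2BC5 probe, at 0.17 ± 0.19, was not among them. Without DOHH2 ST5589 array 2 the first H2BC5 probe was at 0.40 and H2AC6 at 0.49, and no probe was called. H4C2 and H2AC8 were also among the 7, but their probes were above background in no DOHH2 array. Their response there, and the difference between the lines, cannot be read. H2BC21, H3C8 and H3C2, the rest of the 7, were above background in all 3 arrays of neither DOHH2 group, so their response there is uncertain. The member median was 0.03, against 0.00 for all tested probes, and 22 values were below 0 (41.5%, against 49.6%). H2AC6 is thus not shown to respond differently in the 2 lines. Averaged over both lines no member was called either, against 0.492% of all tested probes, while 13 had p under 0.05 before adjustment (24.5%, against 9.19%) and 33 were below 0 (62.3%, against 48.9%). The lowest was H2BC5 at -0.41 ± 0.09 (limma adjusted p = 0.0954), by the probe whose difference between lines was 0.17. Its other tested probe was at -0.23 ± 0.12. In both lines 24 members were below 0 (45.3%, against 30.5%). The counts of this paragraph include the 21 members that passed the filter only through TMD8 groups.

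Of 3 lists of related genes, covering histone mRNA processing, histone chaperones and replication-independent histones, each held 1 call with ST5589 in TMD8, where 0.565% of all tested probes were called. Of 27 tested genes of histone mRNA transcription and processing, 1 was called in TMD8: CCNE1, the cyclin E1 that activates CDK2 at the start of S phase, rose to 9.22, 9.28 and 9.23 with ST5589, against 8.41, 8.79 and 8.71 with DMSO (0.61 ± 0.12, limma adjusted p = 0.0381). SLBP, the stem-loop binding protein, was at 0.15 ± 0.15, NPAT at 0.17 ± 0.10 and CDK2 at 0.44 ± 0.10 (limma adjusted p = 0.118). Of 21 tested chaperones, CHAF1B, a subunit of the chromatin assembly factor CAF-1, was called higher at 0.51 ± 0.10 (limma adjusted p = 0.0451). Of 11 tested replication-independent histones, CENPA, the H3 variant of centromeres, was called lower at -0.96 ± 0.10 (limma adjusted p = 7.82e-04). H2AX, the variant phosphorylated at DNA breaks, was at -0.39 ± 0.36, H2AZ1 at -0.00 ± 0.10 and H3-3A at -0.07 ± 0.10, and the chaperone ASF1B was at 0.74 ± 0.38. None of the 3 lists had a call in DOHH2. Each list gene was read by 1 probe, the tested one of highest mean. Whether the calls of these lists held in the alternatives was not examined.

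Between the lines under DMSO these lists split in both directions, with 24.9% of all tested probes called higher and 23.0% lower. SLBP was higher in DOHH2 by 1.18 ± 0.15 and NPAT by 0.56 ± 0.10, and in all 11 processing genes were called higher and 5 lower. Among chaperones 5 were called higher and 3 lower, with ASF1A, which hands H3 and H4 to assembly factors, at 2.00 ± 0.10. Among the 11 tested replication-independent histones 2 were called higher and 5 lower: H2AJ was called lower at -1.88 ± 0.14 and H3-3B at -1.04 ± 0.09, while the linker histone H1-10 was called higher at 1.04 ± 0.12. The medians were 0.02, 0.06 and 0.00 for the 3 lists.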

How the data were processed

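RNA came from RNeasy kits and was amplified to biotinylated cRNA with TotalPrep, per the labels' protocols; GenomeStudio is named, without a version, per the submitters' processing notes. What the authors deposited is a linear probe intensity table, not normalized and without detection p-values or control probes. They also deposited processed log2 values, whose normalization the labels leave unstated. The deposited log2 values served as an alternative. Samples were grouped from the labels, and no sample column was left unused.

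In R 4.3.3, limma 3.58.1 corrected intensities with normexp (offset 50) and quantile normalized them as log2 values. Each array's background was described by the mode of its log2 intensities and an SD taken from the lower flank, and the 0.99 normal quantile was the limit for being above it. Testing required all 3 arrays of some group to pass, whether or not the probe had a gene name. 1 linear model with a coefficient per group was fitted to the 12 arrays with lmFit and eBayes. Benjamini-Hochberg adjustment ran over all tested probes, and an adjusted p under 0.05 was a call. "At least" folds compare the bright group with the dim one after raising dim values to the lowest signal above background in that array. The fit was also run on simulated data with independent normal noise for each probe. Deviations shared across the probes of an array were not simulated, so that run does not speak to them. Error is limited by 3 arrays a group, with a median SE of 0.12.

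Gene names came from the platform's annotation and were brought up to date by gene identifier, which matched for 30074 of 30121 listed probes. The members and lists were chosen with earlier results of these data known. Names came from members called in any contrast, the 5 highest and 5 lowest in each line with ST5589 and the 8 of highest mean. They also came from the 5 highest and 5 lowest called between lines, the polyadenylated list and H1-1 to H1-6. A few neighbours and copies were named for their position. Not every such member was named. H2BC6, H3C4, H2AC17, H2AC21 and H2AC25, each called lower in DOHH2 under DMSO, are named nowhere else. In the other lists, up to 4 genes of widest change and a fixed set of regulators and variants were named. 12 kinds of alternative were tried: other background correction, offset, scaling and filters, the deposited log2 values, 1 probe per gene, a replicate block, an intensity trend, array weights, each line alone, and leaving out each array.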

Additional observations from a re-analysis of the deposited data

How the results depend on the processing

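Between the lines, H1-2, H2BC12, H2BC5, H2AC18, H2AC19, H2BC21, H2AC6 and H2BC9 stayed called in the same direction in all alternatives in which they were tested, while H2BC15 lost its call in 9 of 20 alternatives and H4C16 in 3 of 20. The members called and lower by over 2 log2 units numbered 8 where probes had to be above background in all 12 arrays. Under that filter 25 members were tested, 14 were called lower, their median was -0.79, and 7051 probes were called. The median between the lines was also -0.79 with an offset of 16, -0.31 with no background correction and -0.20 with no filter. With arrays scaled to a common median 6287 probes were called between the lines, 45.1% of them higher against 51.9% in the main setting, and 6149 with 1 probe per gene.

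The counts of calls with ST5589 moved with the setting, and the cause was not tested. In TMD8, 9 probes and 1 member were called with arrays scaled to a common median (member median -0.22, against -0.08 for all tested probes; 66.7% of calls higher, against 50.9% in the main setting), 485 probes and 7 members with array weights, 1 member with an offset of 16, and 0 members, with 10 wholly below DMSO, among those above background in all 12 arrays. In DOHH2, 0 probes were called with scaling to a common median or in a fit of that line alone (3 members wholly below DMSO in each), and 1 probe among those above background in all 12 arrays (1 member wholly below). For the difference between lines, 0 probes were called with scaling to a common median, 1 with the authors' deposited log2 values, 1 with no background correction and 13 with array weights. For the average, 0 probes were called with scaling to a common median and 296 with array weights, and members called numbered 4 with array weights, 1 with an offset of 16 and 1 with an intensity trend.

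Leaving out 1 array gave 50 to 130 probes and 1 to 3 members called in TMD8, a member median of -0.14 to -0.08 and 19 to 26 members wholly below DMSO. Each left-out TMD8 array left 1 member called, H4C2, and 50 to 70 probes. In DOHH2 it gave 1 to 4 probes and 0 members, a median of -0.11 to 0.028 and 5 to 14 members wholly below. For the difference it gave 0 to 16 probes, 0 to 1 members and a median of -0.072 to 0.14; for the average 70 to 91 probes, 0 to 1 members and a median of -0.08 to -0.04. Between the lines it gave 8299 to 10397 probes, 29 to 33 members lower, a median of -0.47 to -0.33 and 10 members past 2 log2 units. Groups that lost an array separate more easily, so the counts wholly below DMSO cannot be set against those with all arrays.

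The labels number replicates alike in both treatments, but arrays of the same number did not deviate together (correlations of -0.14, -0.00 and -0.11 in TMD8 and -0.47, -0.01 and -0.25 in DOHH2), so the numbers were not taken as pairs. With the replicate block, 31 probes and 0 members were called in TMD8 (adjusted p 0.0652 for H4C2 and 0.208 for H2AC6), 0 probes in DOHH2, 0 for the difference and 47 for the average. The block gives no value between the lines, and the fit of each line alone none for the difference, the average or the lines. Signal over background limits the members that are dim in DOHH2, where 31 of 79 member probes were above background in no DMSO array.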
